A study of Mus musculus with 24 samples.

Results

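Insulin and insulin-like growth factor 1 (IGF-1) were compared directly in mouse primary cortical astrocytes that kept the insulin receptor gene. The comparison was chosen by sample title: 4 libraries of floxed control astrocytes given insulin were set against 4 libraries of the same kind of cells given IGF-1, which makes 8 of the 24 libraries in the series. Both ligands were used at 100 nM for 6 h after a night in serum-free medium with albumin. The astrocytes came from the cortices of newborn pups with a floxed insulin receptor gene (IRflox). Both groups carry the floxed allele, and both received an adenovirus that encodes GFP alone, without Cre, and were kept for 5 days before use, so neither is a wild-type or an uninfected culture. The cell layer was grown in serum, shaken to remove other cells and replated, and the age on the titles is DIV14 (day 14 in vitro). Of the remaining libraries, 4 were floxed control astrocytes given vehicle, and they supply the starting level of each gene. The other 12 were from IRKO astrocytes, floxed cells that received a Cre:GFP adenovirus, under vehicle, insulin or IGF-1 (4 each). Insr counts remained in those libraries, at 40.4 ± 2.47, 29.0 ± 1.70 and 30.3 ± 1.40 CPM (library-scaled counts, SD, n = 4) under vehicle, insulin and IGF-1, against 61.6 ± 3.60, 49.6 ± 2.35 and 48.5 ± 1.95 CPM in floxed control cells. IRKO therefore names the label, and whether the remaining counts come from the deleted stretch was not analysed here. Separate cultures are not stated for the 4 libraries of each group. All p-values therefore rest on library-to-library spread, part or all of which may be technical.

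Insulin and IGF-1 are related peptide hormones that signal through related receptor tyrosine kinases. The insulin receptor (Insr) and the IGF-1 receptor (Igf1r) can also pair into hybrid receptors, and at high concentration each hormone binds the other's receptor. Both receptors phosphorylate the adaptor proteins IRS1 and IRS2 and feed a phosphoinositide 3-kinase (PI3-kinase) and AKT branch, which restrains FOXO factors and autophagy and raises lipid and protein synthesis, and a RAS and MAP kinase (MAPK) branch, which induces growth factor genes and its own inhibitors. Astrocytes express both receptors, take up glutamate and potassium around synapses, and make cholesterol for neurons.

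Gene counts summed to between 16232085 and 18038852 in the 8 libraries, and 15599 of 32719 genes passed the filter on low counts. Levels are given as CPM, a gene's count scaled to the size of its library, which is not adjusted for gene length and is compared here only within a gene. All 16 astrocyte markers listed were detected, with a median level of 233 CPM. Microglia markers were detected as well (18 of 18, median 88.1 CPM). A mean of at least 1 CPM was reached by 8 of 15 neuron, 10 of 14 oligodendrocyte lineage and 3 of 11 endothelial markers. The highest of each were Stmn2 (90 CPM), Olig1 (177 CPM) and Flt1 (4.9 CPM). At the low end, the endothelial genes Cldn5 and Emcn had no count in any of the 8 libraries. Rbfox3 of mature neurons and Sox10 of the oligodendrocyte lineage had at most 6 and 5 counts in a library. In a principal component analysis of the 8 libraries the first component held 20.37% of the variance and put the 4 insulin libraries (1.647 to 11.037) on one side of the 4 IGF-1 libraries (-11.666 to -4.154). Insulin replicate 4 lay nearest to the IGF-1 libraries.

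Most genes lay within a narrow margin between insulin and IGF-1, and the differences that passed the test were small. By the quasi-likelihood test of edgeR, adjusted by Benjamini-Hochberg, 404 of 15599 genes (2.59%) had an adjusted p under 0.05, here called. Of these, 233 were higher with insulin (1.49% of genes tested) and 171 were higher with IGF-1 (1.1%). Only 9 genes in each direction (0.0577% each) were both called and more than 1.5-fold apart. The 95% interval of the difference lay within 1.25-fold in either direction for 9794 genes (62.8%), and 160 of the called genes were among them. The median halfwidth of that interval was 0.153 on the log2 scale, and the biological coefficient of variation was 4.92%. The count of called genes fell to 247 without insulin replicate 2 and to 250 without IGF-1 replicate 4. All differences below are log2 insulin minus IGF-1, so that a negative value means a higher level with IGF-1.

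Igf1r was the 1 receptor or adaptor gene called between the ligands in edgeR. Insr (chromosome 8, 3122061 to 3279617, minus strand, mm10 and GENCODE M21) stood at 52.6, 47.5, 50.2 and 48.1 CPM with insulin and 47.1, 49.2, 50.9 and 46.7 CPM with IGF-1. The ranges overlap, the log2 difference was 0.032 (95% interval -0.079 to 0.14), and the edgeR adjusted p was 0.877. Igf1r (chromosome 7, 67952827 to 68233668, plus strand) stood at 91.8, 86.0, 85.0 and 90.6 CPM with insulin and 100.0, 97.7, 96.3 and 102 CPM with IGF-1, against 191 ± 2.00 CPM (SD, n = 4) under vehicle. It fell with both ligands (-1.11 and -0.95 against vehicle, edgeR adjusted p = 4.69e-25 and 4.2e-23), and the insulin libraries were all below the IGF-1 libraries (-0.16, SE 0.041, edgeR adjusted p = 0.0177). That call was lost on leaving out IGF-1 replicate 1 or 4 or insulin replicate 2 or 3, with edgeR adjusted p of up to 0.0809. Irs1 and Irs2, the adaptor genes, did not pass (-0.084 and 0.025), and 30.9% of the exon length of Irs1 is shared with the overlapping gene Gm9747, which makes its counts uncertain. Igf1r was the 1 edgeR call among 21 tested genes for insulin and IGF receptors and adaptors (2.59% of all genes were called), and DESeq2 called 1 more, higher with insulin.

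Among genes around IGF availability and PI3-kinase signalling, a few crossed the threshold in each direction. Igfbp5, a secreted IGF-binding protein, was higher with insulin, at 516, 523, 493 and 464 CPM against 436, 399, 441 and 429 CPM (0.23, SE 0.049, edgeR adjusted p = 0.00401). Igfbp3, another binding protein, was higher with IGF-1, at 818, 875, 902 and 932 CPM with insulin and 1062, 1072, 1019 and 1069 CPM with IGF-1 (-0.26, SE 0.053, edgeR adjusted p = 0.00255). Both genes rose with either ligand from 358 ± 31.3 and 624 ± 74.4 CPM (SD, n = 4) under vehicle, by 0.25 to 0.76 on the log2 scale (edgeR adjusted p of at most 3.86e-05). They were the 2 calls (all genes 2.59%) among the 13 tested ligands, binding proteins and proteases of the IGF system, and the protease gene Pappa was not called (0.10, edgeR adjusted p = 0.771). Of 38 tested PI3-kinase, AKT and mTORC1 genes, 2 were called, both higher with insulin (all genes 1.49%). Pik3ip1, an inhibitor of PI3-kinase (chromosome 11, 3330401 to 3342971, plus strand), was at 119, 122, 124 and 125 CPM under vehicle, 53.7, 59.4, 50.5 and 51.3 CPM with insulin and 45.5, 43.0, 45.1 and 41.8 CPM with IGF-1. It fell with both ligands, and no IGF-1 library reached the lowest insulin library (0.29, SE 0.054, edgeR adjusted p = 0.000772). Sesn3, a sestrin that restrains mTORC1, had the same order of groups, with 236 ± 14.8 CPM under vehicle, 125 ± 5.12 CPM with insulin and 108 ± 4.29 CPM with IGF-1 (SD, n = 4 each), and a difference of 0.21 (SE 0.045, edgeR adjusted p = 0.00311).

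Autophagy genes, the subject named in the study's title, were not called between insulin and IGF-1 in the main fit of floxed control cells. None of 23 tested genes of autophagy initiation, none of 16 of the ATG8 family and its conjugation, and none of 22 selective autophagy receptors was called in edgeR, DESeq2 or limma voom. At an unadjusted p under 0.05 the counts were 7, 1 and 6 (13.7% of all genes tested reached that level in edgeR). The list medians were 0.043, 0.03 and 0.059, against -0.003 over all genes tested, and 15 of 23, 12 of 16 and 19 of 22 members had a positive difference. With only the 12 floxed control libraries in the fit, 1 selective autophagy receptor was called. Ulk1, the kinase that starts autophagy (chromosome 5, 110784488 to 110810097, minus strand), stood at 103, 105, 93.4 and 96.0 CPM under vehicle, 38.1, 42.3, 36.3 and 38.4 CPM with insulin and 34.0, 36.3, 37.6 and 33.6 CPM with IGF-1. The treated groups overlap, and the difference between them was 0.13 (95% interval 0.014 to 0.25, edgeR adjusted p = 0.285). Gabarapl1 of the ATG8 family and Sqstm1, the receptor p62, had differences of 0.095 and 0.12 (edgeR adjusted p = 0.42 and 0.181). Of 46 tested lysosome genes only Scarb2, a lysosomal membrane protein, was called (0.15, edgeR adjusted p = 0.0247, all genes 2.59%), and it lost its call in 5 of 8 leave-one-out fits (up to 0.126). Tfeb, the lysosome regulator, was not (-0.12, edgeR adjusted p = 0.645).

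FOXO target genes showed 3 calls among 34 tested, Pik3ip1 and Sesn3 higher with insulin and Ccnd1 (cyclin D1) higher with IGF-1, with a list median of 0.043 (2.59% of all genes were called). Against vehicle, Pik3ip1 and Sesn3 were lower with both ligands, whereas Ccnd1 rose with both (0.70 with insulin and 0.90 with IGF-1). Counts of Ccnd1 are uncertain, since 23.4% of its exon length is shared with an overlapping gene. Fbxo32, a ubiquitin ligase gene of muscle atrophy (chromosome 15, 58175879 to 58214932, minus strand), was at 44.0, 45.7, 40.2 and 45.3 CPM under vehicle, 5.21, 4.14, 5.94 and 3.54 CPM with insulin and 2.80, 3.97, 2.64 and 4.68 CPM with IGF-1. Insulin and IGF-1 libraries overlap, and at these low levels the difference of 0.41 (SE 0.17) was not called (edgeR adjusted p = 0.233). Pdk4, the pyruvate dehydrogenase kinase, was also low and not called (0.18, SE 0.21, edgeR adjusted p = 0.774). The factor genes Foxo1 and Foxo3 had differences of 0.17 and 0.13 (edgeR adjusted p = 0.108 and 0.0582), and Foxo3 passed only in DESeq2 (0.0254) and with a filter at a mean of 1 CPM (0.0472).

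Genes for secreted signals at low levels (Ereg, Shh and Tnfsf11) were among the 12 largest called differences in favour of IGF-1, counted over genes with a mean log2 CPM of at least 2. Ereg, which encodes the EGF receptor ligand epiregulin (chromosome 5, 91074622 to 91093646, plus strand), stood at 2.24, 2.17, 2.23 and 2.68 CPM under vehicle, 3.33, 3.90, 5.38 and 6.40 CPM with insulin and 7.50, 9.70, 7.58 and 9.23 CPM with IGF-1. No library of one group reached the next, and the level was 1.78-fold higher with IGF-1 than with insulin (log2 -0.83, SE 0.15, edgeR adjusted p = 0.000744). Shh, which encodes the morphogen sonic hedgehog (chromosome 5, 28456815 to 28467256, minus strand), had the same 3 steps, at 6.14, 6.72, 7.27 and 6.39 CPM under vehicle, 9.75, 13.1, 15.2 and 14.1 CPM with insulin and 22.6, 20.8, 21.7 and 26.4 CPM with IGF-1. Its difference was -0.81 (SE 0.11, edgeR adjusted p = 1.04e-05). Cyp24a1, the enzyme that breaks down active vitamin D (chromosome 2, 170482708 to 170497145, minus strand), was at 2.18, 1.85, 2.44 and 1.83 CPM, 4.66, 3.24, 4.14 and 3.14 CPM and 6.89, 6.75, 6.96 and 6.06 CPM in the same order (-0.81, SE 0.17, edgeR adjusted p = 0.00248). Tnfsf11, the cytokine RANKL, was at 6.18, 5.41, 5.44 and 4.10 CPM with insulin and 7.19, 9.87, 8.08 and 6.48 CPM with IGF-1, against 2.10 ± 0.628 CPM (SD, n = 4) under vehicle (-0.59, SE 0.15, edgeR adjusted p = 0.0209). This call was lost without IGF-1 replicate 2 (edgeR adjusted p = 0.15) and without insulin replicate 2 or 4.

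Akap12 and Cemip were higher with IGF-1 while insulin against vehicle was not called for either. Akap12, a scaffold protein for protein kinases A and C (chromosome 10, 4266380 to 4359470, plus strand), was at 190.3, 187, 190.5 and 205 CPM under vehicle, 211, 201, 203 and 205 CPM with insulin and 298, 301, 289.5 and 327 CPM with IGF-1. The insulin and vehicle libraries overlap, whereas all IGF-1 libraries lay above both. The difference between ligands was -0.57 (SE 0.041, edgeR adjusted p = 8.62e-13), and insulin against vehicle gave 0.085 (edgeR adjusted p = 0.0905). Cemip, a protein that promotes hyaluronan breakdown (chromosome 7, 83932857 to 84086502, minus strand), was at 63.8, 71.7, 81.9 and 69.9 CPM under vehicle, 74.2, 67.6, 73.2 and 75.7 CPM with insulin and 104, 120.1, 92.5 and 107 CPM with IGF-1. The pattern was the same, with a difference of -0.54 between ligands (SE 0.070, edgeR adjusted p = 3.66e-06) and 0.016 between insulin and vehicle (edgeR adjusted p = 0.877). Tm4sf1, a tetraspan membrane protein, was at 125, 127, 131 and 142 CPM with insulin and 173, 190.3, 179.5 and 181 CPM with IGF-1 (-0.46, SE 0.059, edgeR adjusted p = 2.68e-06). Tm4sf1 was not among the 12 largest in this direction, whereas Akap12 and Cemip were. Also among those 12 were Sox7 (-0.66), Fosl1 (-0.60), Sele (-0.58), Sertm1 (-0.55) and Tgm1 (-0.53), with edgeR adjusted p of 0.000772 to 0.0212. Fosl1 shares 57.2% of its exon length with Ccdc85b, and its counts are uncertain because the libraries hold no strand information. Calls of Sele and Sertm1 were lost on leaving out 3 and 5 of the 8 libraries in turn.

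**Figure D1:**
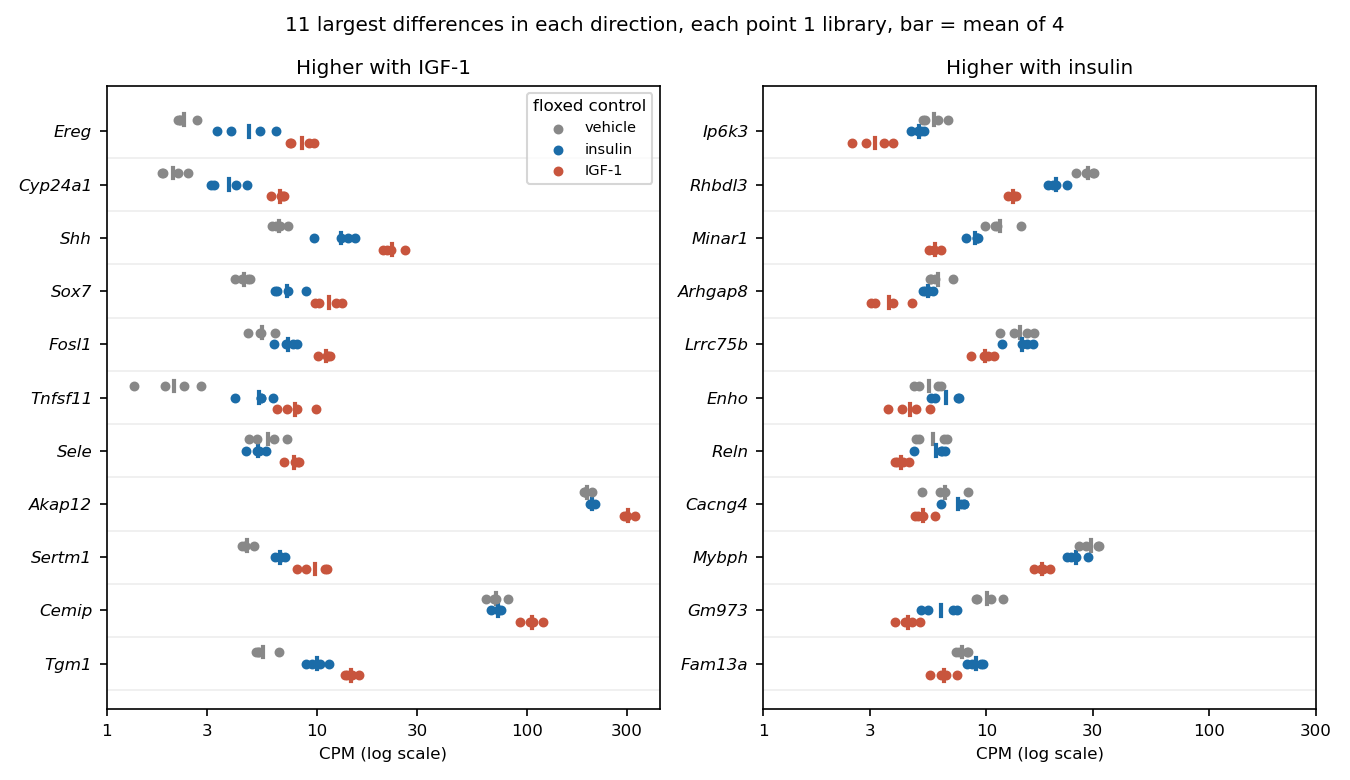
CPM of the 11 genes with the largest called difference in each direction, among genes with a mean log2 CPM of at least 2, on a log axis, in the 4 vehicle (grey), 4 insulin (blue) and 4 IGF-1 (red) libraries of floxed control astrocytes, where each point is 1 library and each bar the mean. Insulin and IGF-1 libraries do not overlap for any gene shown, which is also part of the rule that chose them, and for Akap12 and Cemip the insulin and vehicle points overlap.

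Several feedback inhibitors of the MAPK branch were higher with IGF-1: Dusp4, Dusp6, Dusp7, Spry2, Spry4, Spred1 and Spred3. Of 43 tested genes of MAPK feedback and early response, 11 were called higher with IGF-1 and 1, Jun, higher with insulin (background 1.1% and 1.49%), and the list median was -0.101 against -0.003 over all genes. Leaving out a library gave 8 to 11 calls in favour of IGF-1. The others of the 11 were Fosl1, Ier3, Etv5 and Maff, genes induced early after growth factor signals. Against the same vehicle libraries, 8 of the 43 rose and 17 fell with insulin, while 14 rose and 15 fell with IGF-1. Of all genes, 24.3% rose and 21.4% fell with insulin, and 26.4% rose and 24.4% fell with IGF-1. Dusp6, a phosphatase of the kinase ERK (chromosome 10, 99263231 to 99267489, plus strand), was at 28.6, 30.6, 33.5 and 31.2 CPM under vehicle, 28.9, 28.6, 26.7 and 28.0 CPM with insulin and 34.2, 40.6, 36.3 and 38.9 CPM with IGF-1. IGF-1 libraries were all above the other 8, and the difference between ligands was -0.42 (SE 0.069, edgeR adjusted p = 0.00014). Dusp4, another MAPK phosphatase (chromosome 8, 34807297 to 34819894, plus strand), was at 19.7, 17.1, 14.97 and 16.4 CPM under vehicle, 14.8, 13.3, 13.2 and 15.9 CPM with insulin and 19.6, 19.8, 18.2 and 21.7 CPM with IGF-1. It fell with insulin (-0.25, edgeR adjusted p = 0.0189) and rose with IGF-1 (0.22, edgeR adjusted p = 0.0304), each against the same vehicle libraries. The direct difference was -0.47 (SE 0.087, edgeR adjusted p = 0.000802).

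The inhibitors Spred3 and Spry4 rose with both ligands and were higher with IGF-1. Spred3, an inhibitor of RAS signalling, was at 45.9, 50.9, 47.1 and 46.9 CPM under vehicle, 59.1, 55.4, 58.6 and 56.7 CPM with insulin and 84.3, 72.8, 71.2 and 73.6 CPM with IGF-1, a difference of -0.39 (SE 0.053, edgeR adjusted p = 7.51e-06). Spry4, of the Sprouty family, was at 38.3, 37.7, 39.0 and 39.6 CPM with insulin and 44.6, 48.8, 44.3 and 46.8 CPM with IGF-1 (-0.25, SE 0.057, edgeR adjusted p = 0.00671). Maff, a small basic leucine zipper factor, differed by -0.33 (edgeR adjusted p = 0.0011). The immediate early genes Fos, Egr1 and Myc, named after their values were seen, had differences of -0.085, -0.27 and -0.032 (edgeR adjusted p = 0.758, 0.396 and 0.904).

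EGF family ligands, ERBB receptors and their regulators had 4 calls among 15 tested genes, all higher with IGF-1 (all genes 1.1%). Besides Ereg these were Hbegf, Nrg1 and Lrig1, the last a negative regulator of ERBB receptors. Lrig1 differed by -0.13 (edgeR adjusted p = 0.0353). It lost its call in 7 of 19 other settings, 6 of them leave-one-out fits (up to 0.144 in edgeR). Hbegf, which encodes heparin-binding EGF-like growth factor (chromosome 18, 36504927 to 36515805, minus strand), was at 33.0, 39.9, 48.8 and 39.4 CPM under vehicle, 53.3, 53.6, 56.1 and 59.96 CPM with insulin and 70.1, 70.3, 70.2 and 72.1 CPM with IGF-1. The 3 groups do not overlap, and the difference between ligands was -0.34 (SE 0.068, edgeR adjusted p = 0.00167). Nrg1, which encodes neuregulin 1, had fallen from 107 ± 2.43 CPM under vehicle to 88.7 ± 6.39 CPM with insulin and stood at 100.1 ± 2.62 CPM with IGF-1 (SD, n = 4 each, -0.17, edgeR adjusted p = 0.0224). Leaving out a library gave 2 to 4 calls, with 2 without IGF-1 replicate 4, insulin replicate 1 or insulin replicate 2. Among 46 tested growth factors, cytokines and chemokines, 5 were higher with IGF-1 and 1 higher with insulin (all genes 1.1% and 1.49%). Ccl2, a monocyte attractant, was at 1120.0, 1086, 1095 and 1235 CPM with insulin and 1272, 1422, 1241 and 1360.0 CPM with IGF-1 (-0.22, SE 0.055, edgeR adjusted p = 0.0168). Tgfb2 was the 1 higher with insulin, at 66.0, 58.2, 64.3 and 57.9 CPM against 50.2, 49.0, 53.4 and 52.5 CPM (0.26, SE 0.061, edgeR adjusted p = 0.00841). The 5 calls in favour of IGF-1 became 1 without IGF-1 replicate 2, 2 without insulin replicate 2 or 3 and 3 without IGF-1 replicate 4. Nrg1 and Ccl2 each lost their call in 4 of 8 leave-one-out fits (up to 0.167 and 0.0963 in edgeR), and Tgfb2 without insulin replicate 1 (0.0603).

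Cholesterol synthesis and uptake genes rose with both ligands and lay a further step higher with IGF-1. All 25 tested members rose against vehicle under insulin and under IGF-1 (background 24.3% and 26.4% of genes), with medians of 1.184 and 1.334, and both comparisons use the same vehicle libraries. In the direct comparison 12 of 25 were called higher with IGF-1 and none higher with insulin, 24 of 25 had a negative difference, and the median was -0.136. All 4 IGF-1 libraries lay above all 4 insulin libraries for 17 of the 25, against 3.56% of all genes. Hsd17b7, an enzyme of late cholesterol synthesis (chromosome 1, 169949535 to 169969241, minus strand), was at 39.8, 40.5, 39.2 and 40.9 CPM under vehicle, 133, 133, 142 and 154 CPM with insulin and 158, 198, 168 and 189 CPM with IGF-1. The 3 groups do not overlap, and IGF-1 was 1.27-fold above insulin (-0.35, SE 0.050, edgeR adjusted p = 2.36e-05). Lss, lanosterol synthase (chromosome 10, 76531588 to 76557138, plus strand), was at 283, 268, 289 and 290.1 CPM with insulin and 342, 359, 314 and 334 CPM with IGF-1 from 104 ± 3.27 CPM (SD, n = 4) under vehicle (-0.26, SE 0.041, edgeR adjusted p = 0.000107).

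The step was smaller for the other called members. Stard4, a sterol transfer protein, was at 231, 227, 231 and 241 CPM with insulin and 254, 279, 254 and 274 CPM with IGF-1 from 102 ± 2.99 CPM (SD, n = 4) under vehicle (-0.19, SE 0.038, edgeR adjusted p = 0.00188). Insig1, which retains the SREBP regulators in the endoplasmic reticulum, differed by -0.16 (edgeR adjusted p = 0.0157), a call lost without IGF-1 replicate 2 or 4 or insulin replicate 3 (up to 0.0996). Srebf2, the main transcription factor of these genes, was at 426, 428, 418 and 434 CPM with insulin and 407, 431, 404 and 419.7 CPM with IGF-1, overlapping ranges (0.039, edgeR adjusted p = 0.706). The count of 12 fell to 5 without IGF-1 replicate 2 and to 6 without IGF-1 replicate 4 or insulin replicate 3. On the export side, Abca1, the cholesterol efflux pump, was higher with insulin, at 837, 819, 905 and 864 CPM against 772, 741, 769 and 784 CPM, both below the 1375 ± 75.5 CPM (SD, n = 4) of vehicle (0.16, SE 0.041, edgeR adjusted p = 0.0209). That call was lost without IGF-1 replicate 2 or 3 or insulin replicate 3 (up to 0.12).

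Promoter sequence is shown for 3 of the called cholesterol genes because many members were called in 1 direction and most hold a short shared motif. In the 250 bases before the RefSeq start (GRCm38.p6, 11592 of the 15599 genes had an entry), the box CCAAT, read on either strand, which factor NF-Y recognises, was present in 16 of the 17 list members with an entry (94.1%) and in 40.2% of all genes with one. Among called members it was in 8 of the 9 with an entry (88.9%), so they did not stand out from the list. The SREBP site searched, TCACNCCAC, was in 1 of the 17 (5.88%) and in 1.28% of all. A match is a description of the letters only. Stretches outside annotated exons are printed in the gene's orientation, with the box, here in its reverse reading, in capitals.
Hsd17b7, chr1:169969242-169969408, minus strand: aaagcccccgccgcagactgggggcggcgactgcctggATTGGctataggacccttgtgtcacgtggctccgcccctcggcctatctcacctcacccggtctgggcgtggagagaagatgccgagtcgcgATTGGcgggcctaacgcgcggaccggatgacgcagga
Lss, chr10:76531355-76531587, plus strand: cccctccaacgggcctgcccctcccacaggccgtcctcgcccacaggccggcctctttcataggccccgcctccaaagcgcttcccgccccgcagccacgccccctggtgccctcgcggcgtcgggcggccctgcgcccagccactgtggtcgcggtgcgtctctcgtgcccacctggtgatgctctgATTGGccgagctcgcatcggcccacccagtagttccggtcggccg
Insig1, chr5:28071162-28071362, plus strand: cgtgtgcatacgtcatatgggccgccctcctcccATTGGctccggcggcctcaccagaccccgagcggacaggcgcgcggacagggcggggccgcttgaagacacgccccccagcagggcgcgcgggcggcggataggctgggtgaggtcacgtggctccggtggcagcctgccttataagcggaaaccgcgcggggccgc
The printed boxes begin 165 and 73 bases before the start in Hsd17b7, 62 in Lss and 216 in Insig1. Over the 171 genes higher with IGF-1, of which 122 had an entry, 44.3% held the box.

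Of 31 tested ribosome biogenesis genes 30 rose against vehicle under each ligand, 29 had a negative difference between ligands (median -0.09), 14 were at an unadjusted p under 0.05 (13.7% of all genes), and 2 were called in edgeR, both higher with IGF-1 (all genes 1.1%). DESeq2, limma voom and the fit without a filter on low counts each called 4. The 2 were Nop9 (-0.26, edgeR adjusted p = 0.00353), which shares 29.9% of its exon length with Cideb, and Npm1, nucleophosmin (-0.17, 0.0225 in edgeR), whose call was lost in 5 of 8 leave-one-out fits (up to 0.113). Among 23 fatty acid synthesis genes, Mfsd2a, a lysophospholipid transporter, was at 104, 98.8, 98.3 and 97.5 CPM with insulin and 124, 124, 114 and 115 CPM with IGF-1 (-0.26, SE 0.047, edgeR adjusted p = 0.000566). Elovl6, a fatty acid elongase, was also higher with IGF-1 (-0.19, edgeR adjusted p = 0.0106, up to 0.0896 without IGF-1 replicate 2 or 4 or insulin replicate 2), and Gpam, which starts glycerolipid synthesis, was higher with insulin (0.23, edgeR adjusted p = 0.00598). Srebf1, the regulator of fatty acid synthesis, was just outside the threshold, at 243, 252, 233 and 229 CPM with insulin and 221, 206, 225 and 214 CPM with IGF-1 (0.14, edgeR adjusted p = 0.0548), and was called in 7 of 19 other settings. Tubb2a, the 1 call of 12 tubulins, was higher with IGF-1 (-0.19, edgeR adjusted p = 0.00511), and Hif1a, the hypoxia factor gene, likewise (-0.24, edgeR adjusted p = 0.000829). In G1 control, Ccnd1, which shares 23.4% of its exon length with an overlapping gene, was at 1159, 1159, 1107 and 1119 CPM with insulin and 1324, 1284, 1282 and 1318 CPM with IGF-1 (-0.20, SE 0.035, edgeR adjusted p = 0.000409), while the inhibitor Cdkn2b was higher with insulin (0.19, edgeR adjusted p = 0.00596). None of 33 S and G2/M genes was called in edgeR, DESeq2 or limma voom, with 2 at an unadjusted p under 0.05. In oxidative phosphorylation, glycolysis, ATF4 targets, heat shock and the clock there were likewise 0 edgeR calls, with 4 of 26, 6 of 23, 4 of 30, 7 of 25 and 4 of 19 at that level. Members with a positive difference numbered 5, 8, 16, 11 and 17 in the same order, so the clock list leaned to insulin and oxidative phosphorylation to IGF-1. The list medians were -0.031, -0.023, 0.02, -0.031 and 0.091. DESeq2 called 2 glycolysis genes, 1 in each direction, and none of the other lists, and limma voom called none.

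**Figure D2:**
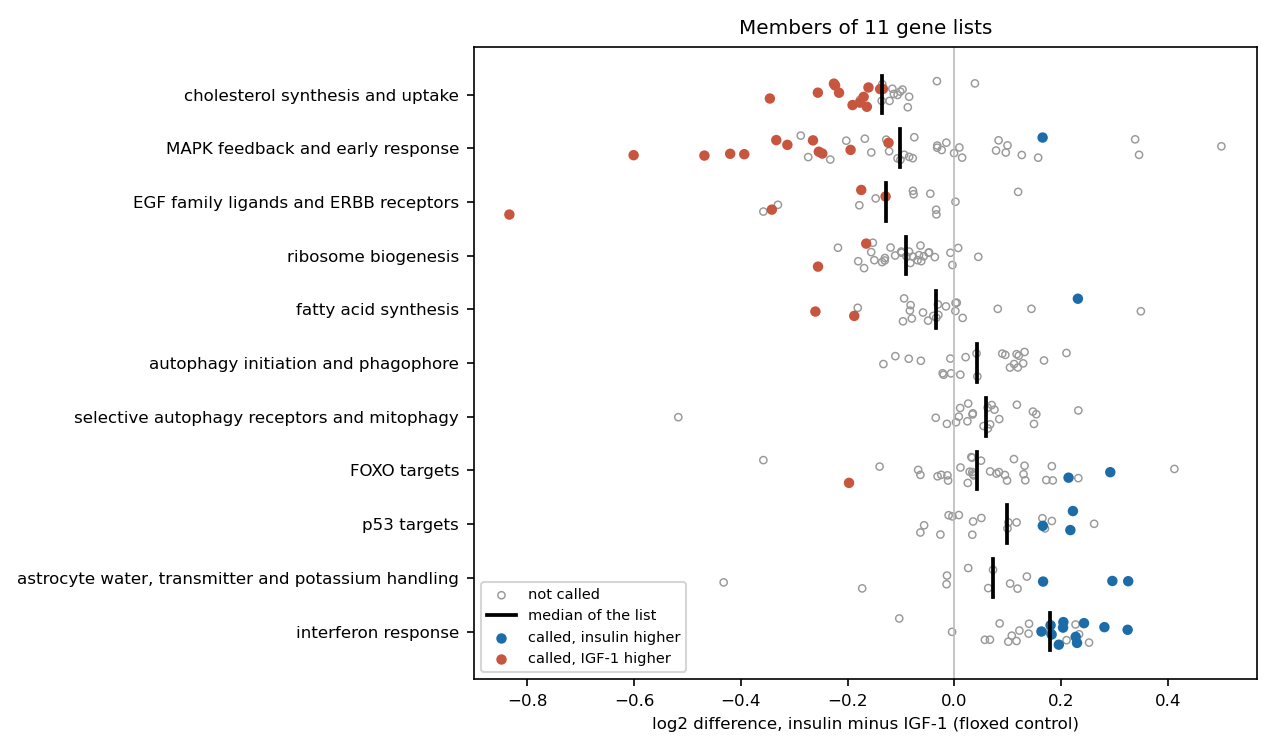
log2 difference (insulin minus IGF-1) of each tested member of 11 gene lists in floxed control astrocytes, with called members filled (blue, insulin higher; red, IGF-1 higher), others open and the list median as a black bar. Cholesterol and MAPK feedback members lie mostly below 0, interferon response members mostly above 0 (26 of 28), and the autophagy lists hold no filled point.

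The 12 largest called differences in favour of insulin, over genes with a mean log2 CPM of at least 2, included several genes that fell with IGF-1 against vehicle. Larger called values occurred below that level, Apoa2 (1.43) among them. Rhbdl3, a rhomboid-like membrane protein (chromosome 11, 80300912 to 80355955, plus strand), was at 30.5, 27.9, 30.1 and 25.2 CPM under vehicle, 19.8, 23.1, 20.5 and 18.8 CPM with insulin and 12.5, 13.2, 13.6 and 13.4 CPM with IGF-1. The 3 groups do not overlap, and insulin was 1.56-fold above IGF-1 (0.64, SE 0.081, edgeR adjusted p = 2.68e-06). Ip6k3, an inositol hexakisphosphate kinase, was at 6.72, 5.18, 6.05 and 5.31 CPM, 5.27, 4.62, 4.95 and 5.11 CPM and 2.50, 2.89, 3.48 and 3.84 CPM in the same order (0.65, SE 0.17, edgeR adjusted p = 0.0216). Its insulin libraries overlap with vehicle and its IGF-1 libraries lie below both, but the call was lost without IGF-1 replicate 1 or 2 or insulin replicate 1 (up to 0.102 in edgeR). Lrrc75b showed overlapping vehicle and insulin libraries above the IGF-1 ones, with 15.3, 13.4, 11.5 and 16.4 CPM under vehicle, 11.8, 16.2, 15.2 and 14.5 CPM with insulin and 10.8, 9.76, 10.2 and 8.58 CPM with IGF-1 (0.55, SE 0.11, edgeR adjusted p = 0.00248). Mybph (0.50) is uncertain, since 49.9% of its exon length is shared with Adora1. The other 8 of these 12 were Minar1, Arhgap8, Enho, Reln, Cacng4, Gm973, Fam13a and 1110032F04Rik, with differences of 0.47 to 0.59 and edgeR adjusted p of 0.0011 to 0.0424. Of these 8, only Minar1 and 1110032F04Rik were called on leaving out any 1 of the 8 libraries. Reln encodes the matrix protein reelin and Cacng4 a transmembrane regulator of AMPA receptors, both under 10 CPM.

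Aqp4, Kcnj10 and Atp1b2 were the 3 calls among 13 tested genes of astrocyte water, transmitter and potassium handling, all higher with insulin (all genes 1.49%). Aqp4, the water channel of astrocyte endfeet (chromosome 18, 15389496 to 15410982, minus strand), was at 1166, 1105, 1134 and 1147 CPM under vehicle, 1260.0, 1190.0, 1291 and 1191 CPM with insulin and 994, 1012, 1030.0 and 982 CPM with IGF-1. It rose with insulin (0.12, edgeR adjusted p = 0.00524) and fell with IGF-1 (-0.18, edgeR adjusted p = 2.49e-05) against the same vehicle libraries, and the direct difference was 0.30 (SE 0.034, edgeR adjusted p = 4.34e-07). Kcnj10, the inward rectifier potassium channel Kir4.1 (chromosome 1, 172341210 to 172374085, plus strand), was at 226, 199.8, 172 and 195 CPM under vehicle, 280.5, 266, 275 and 249 CPM with insulin and 219, 209, 221 and 204 CPM with IGF-1 (0.33, SE 0.053, edgeR adjusted p = 0.00014). All insulin libraries lay above all IGF-1 and vehicle libraries. Atp1b2, a sodium pump subunit, differed by 0.17 (edgeR adjusted p = 0.00687), a call lost without IGF-1 replicate 4 (0.056). The glutamate transporter genes Slc1a2 and Slc1a3, named after their values were seen, had differences of 0.12 and 0.064 (edgeR adjusted p = 0.108 and 0.367).

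Of the 16 astrocyte markers 13 had a positive difference and 4 were called, all higher with insulin (Aqp4, Atp1b2, Sox9 and Gfap, against 1.49% of all genes), and their list median was 0.108. Sox9, an astrocyte transcription factor, was at 144, 132, 137 and 129.6 CPM with insulin and 112, 109.9, 117 and 116 CPM with IGF-1 (0.25, edgeR adjusted p = 0.00218). Gfap, the intermediate filament gene, was at 755, 752, 727 and 664 CPM and 618, 653, 699 and 632 CPM, which overlap (0.16, edgeR adjusted p = 0.0491), and lost its call in 8 of 19 other settings. The summed level of the markers was 7018 to 7316 CPM in the insulin libraries and 6462 to 6693 CPM in the IGF-1 libraries, against 7066 to 7488 CPM under vehicle. Whether fewer astrocytes or less of these RNAs per cell lay with the lower sum cannot be told apart in bulk RNA. Olig1 and Olig2, factors of the oligodendrocyte lineage, were higher with IGF-1 (-0.21 and -0.25, edgeR adjusted p = 0.0091 and 0.00369), and Cspg4, a proteoglycan of oligodendrocyte precursors and mural cells, was higher with insulin (0.27, edgeR adjusted p = 0.0387). Cspg4 lost its call in 9 of 19 other settings, limma voom (0.0519) and 7 of 8 leave-one-out fits among them, and Olig1 without IGF-1 replicate 1 or insulin replicate 4 (up to 0.0681). The summed level of the 14 oligodendrocyte lineage markers was 382 to 424 CPM with insulin and 426 to 455 CPM with IGF-1, against 315 to 342 CPM under vehicle. Most of that sum was Olig1 and Olig2 (means of 177 and 111 CPM over the 8 libraries). Of the 11 tested members, 5 had a positive and 6 a negative difference. The summed level of fibroblast and mural markers was 404 to 458 CPM with insulin and 368 to 399 CPM with IGF-1. In the same order, that of ependyma and choroid plexus was 178 to 238 and 162 to 176 CPM. That of microglia was 1547 to 1662 and 1575 to 1676 CPM. Most of the ependyma sum was Foxj1, a factor of ciliated cells, at 192 ± 28.3 CPM with insulin and 154 ± 7.76 CPM with IGF-1 (SD, n = 4 each, 0.32, edgeR adjusted p = 0.00233). Of 11 library measures tested, the sums for astrocyte, oligodendrocyte, fibroblast and mural, ependyma and liver markers reached the smallest p that 4 against 4 allows in a two-sided exact permutation test (0.0286), with an adjusted p of 0.06286 each. Microglia markers (0.4857), total gene counts (0.5714) and reads outside genes (0.6) did not in that exact test. The part of cell makeup in the differences was not tested.

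p53 targets had 3 calls of 19, all higher with insulin (all genes 1.49%). Trp53inp1 was at 269, 274, 256 and 256 CPM with insulin and 225, 219.7, 234 and 226 CPM with IGF-1, Fas, the death receptor, at 156, 154, 157 and 158 and 131, 137, 136 and 134 CPM, and both genes fell with both ligands from vehicle (312 ± 9.46 and 197 ± 7.71 CPM, SD, n = 4). Their differences were 0.22 (SE 0.037) and 0.22 (SE 0.040), with edgeR adjusted p of 0.000199 and 0.000644. The third, Eda2r, lost its call in 7 of 8 leave-one-out fits. Cdkn1a, the cell cycle inhibitor p21, had a difference of 0.034 (edgeR adjusted p = 0.798, named after its value was seen). Cpt1a, the gate of fatty acid oxidation, was higher with insulin (0.20, edgeR adjusted p = 0.00666, up to 0.0553 without IGF-1 replicate 2 or 4), as was Gclc of glutathione synthesis (0.24, edgeR adjusted p = 0.00093), whereas Txnrd1, thioredoxin reductase, was higher with IGF-1 (-0.13, edgeR adjusted p = 0.0209, up to 0.0838 without IGF-1 replicate 4 or insulin replicate 1 or 2). Among 36 genes of collagens and matrix, Tnc (tenascin C, -0.23) and Col8a1 (-0.23) were higher with IGF-1 and Col1a2 (0.17) with insulin, at edgeR adjusted p of 0.000773 to 0.0388 (all genes 1.1% and 1.49%). Col1a2 lost its call in 7 of 19 other settings, 6 of them leave-one-out fits (up to 0.154). A panel of 36 reactive astrocyte genes gave 5 calls in each direction (all genes 1.49% and 1.1%). Those higher with insulin were 2 without IGF-1 replicate 1 or 4 or insulin replicate 3 and 3 or 4 without another library, 3 with RLE size factors, 7 in limma voom and in DESeq2, and 8 without a filter on low counts. Tm4sf1, Clcf1 (-0.36), Tgm1, S100a10 and Ptx3 were higher with IGF-1, and S1pr3 (0.16), Gbp2, Iigp1, Ptgs2 and Gfap with insulin (Clcf1 and S1pr3 at edgeR adjusted p of 1.89e-05 and 0.00219).

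Interferon response genes formed the largest one-sided list on the insulin side. Of 28 tested, 11 were called higher with insulin and none higher with IGF-1 (background 1.49% and 1.1%), 26 had a positive difference, and the median was 0.18. All 4 insulin libraries lay above all 4 IGF-1 libraries for 13 of the 28, against 4.24% of all genes. Against the same vehicle libraries, 15 of 28 rose and 2 fell with insulin, while 4 rose and 9 fell with IGF-1. Of all genes 24.3% rose and 21.4% fell with insulin, and 26.4% rose and 24.4% fell with IGF-1. Ifit2, an antiviral tetratricopeptide protein (chromosome 19, 34550694 to 34576419, plus strand), was at 354, 361, 427 and 353 CPM under vehicle, 299, 368, 349.7 and 345 CPM with insulin and 239, 297, 273 and 278 CPM with IGF-1. All insulin and vehicle libraries, which overlap, lay above all IGF-1 libraries (0.32, SE 0.061, edgeR adjusted p = 0.000938). Ifit1, of the same family (chromosome 19, 34640871 to 34650009, plus strand), was at 376, 411, 488 and 387 CPM under vehicle, 364, 436, 435 and 448 CPM with insulin and 323, 364, 359 and 339 CPM with IGF-1. Insulin replicate 1 lay just above the highest IGF-1 library, and the difference was 0.28 (SE 0.058, edgeR adjusted p = 0.00239). Oasl2, an oligoadenylate synthetase-like protein, was at 544, 577, 578 and 557 CPM with insulin and 483, 512, 517 and 478 CPM with IGF-1 (0.18, SE 0.037, edgeR adjusted p = 0.00255). Ddx58, the RNA sensor RIG-I, was at 281, 305, 322 and 298 CPM with insulin and 264, 269, 278 and 242 CPM with IGF-1, from 266 ± 10.4 CPM (SD, n = 4) under vehicle (0.20, SE 0.041, edgeR adjusted p = 0.00354). Irf7, a transcription factor of the response, was also called (0.23, edgeR adjusted p = 0.00529, named after its value was seen). Leaving out a library gave 9 to 13 calls, and 16 were made without a filter on low counts. All cells had received an adenovirus, and its level was not analysed here.

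Promoters of Ifit1 and Ifit3 are shown because 11 interferon genes were called in 1 direction. The interferon-stimulated response element, searched on both strands as GAAA, any 2 bases and GAAA again, was found in 10 of 21 list members with a promoter entry (47.6%), in 5 of 10 called ones, in 3.25% of all genes with an entry, in 11.9% of the 168 insulin-higher genes with one and in 3.28% of the 122 IGF-1-higher genes with one. Ifit3 has a near-identical neighbour, Ifit3b, so the counts of both are uncertain. Matches are in capitals, in reverse reading.
Ifit1, chr19:34640744-34640870, plus strand: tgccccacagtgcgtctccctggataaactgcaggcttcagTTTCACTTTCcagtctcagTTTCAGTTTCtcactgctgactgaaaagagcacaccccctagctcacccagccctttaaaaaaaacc
Ifit3, chr19:34583279-34583528, plus strand: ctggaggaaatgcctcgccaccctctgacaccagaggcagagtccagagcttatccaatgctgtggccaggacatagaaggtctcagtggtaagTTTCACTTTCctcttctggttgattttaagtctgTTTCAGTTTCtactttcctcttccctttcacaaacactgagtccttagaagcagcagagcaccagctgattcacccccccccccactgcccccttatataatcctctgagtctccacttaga
The matches begin 104 and 85 bases before the start in Ifit1 and 156 and 122 in Ifit3.

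**Figure D3:**
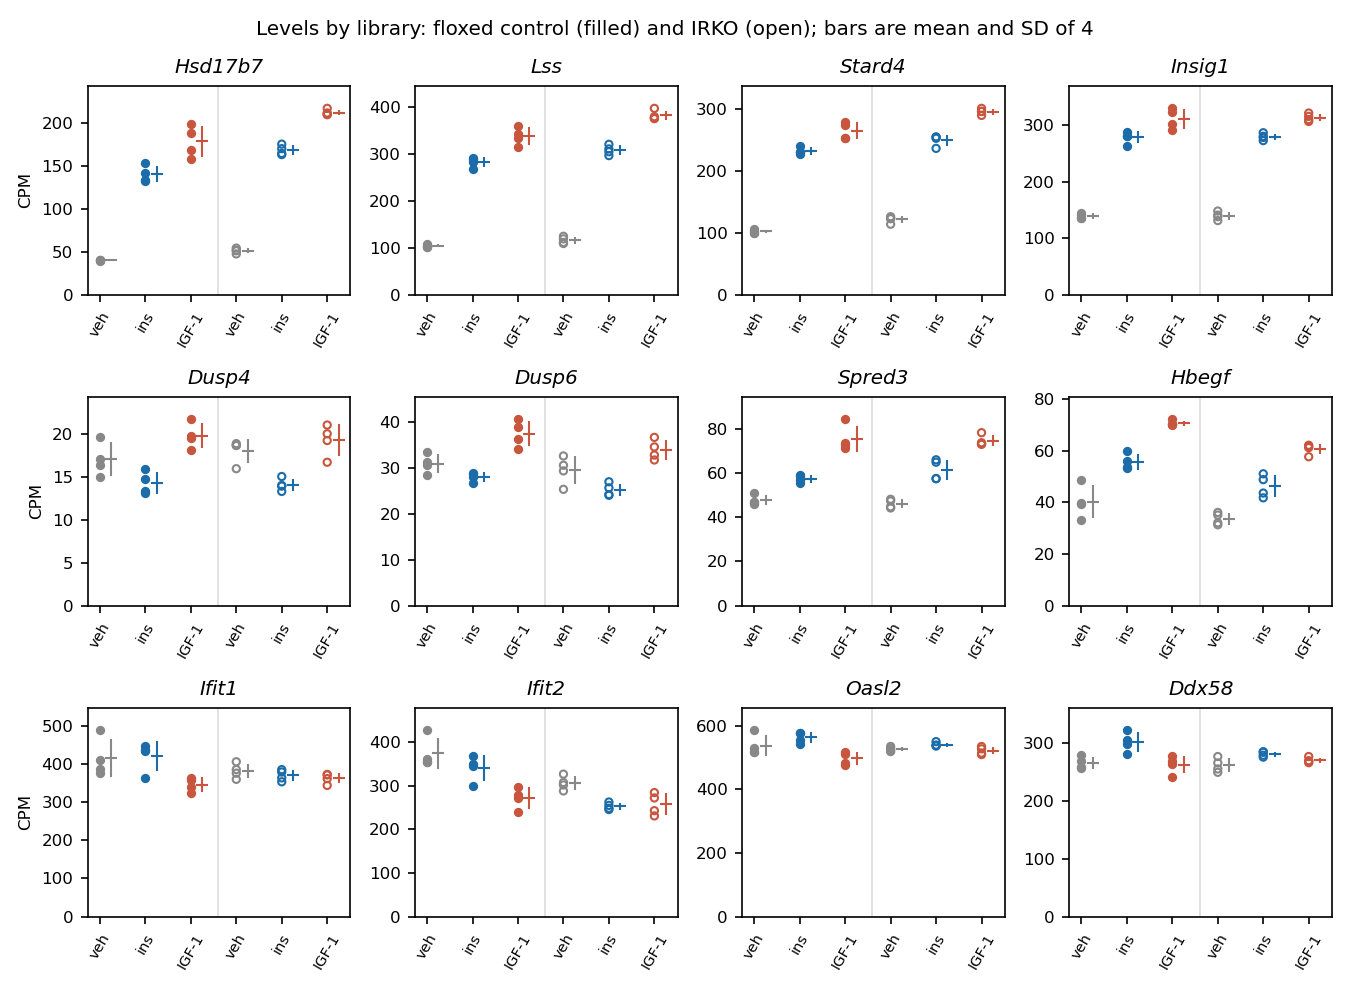
CPM of 12 genes in all 24 libraries, floxed control filled and IRKO open, with the mean and SD of 4 libraries beside each group and axes starting at 0. IGF-1 exceeds insulin in both genotypes for the cholesterol genes (top row) and MAPK branch genes (middle row), and the Ifit2 gap between insulin and IGF-1 seen in floxed control cells (0.32) is -0.026 in the IRKO libraries.

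IRKO astrocytes gave the same ligand comparison in 8 libraries that share no sample with the floxed control ones. There, 417 genes (2.67%) were called, 166 higher with insulin (1.06%) and 251 higher with IGF-1 (1.61%). Of the 404 genes called in floxed control cells, 186 were also called in IRKO cells, all in the same direction, which is 46.0% of the floxed and 44.6% of the IRKO list. Of the 171 genes higher with IGF-1 in floxed control cells, 167 (97.7%) had a negative difference in IRKO cells and 116 were called, and their median moved from -0.256 to -0.233. Of the 233 higher with insulin, 216 (92.7%) had a positive difference, 70 were called, and the median moved from 0.231 to 0.136. Both sets were chosen by passing the test in the floxed libraries, so smaller medians in other libraries can follow from that choice alone. The medians are no test of a difference between genotypes. The MAPK list had 11 calls higher with IGF-1 and 1 with insulin in IRKO cells, and the cholesterol list 12 and 0, the same counts as in floxed control cells. Equal counts need not be the same genes, and Fosl1 of the MAPK list was not called in IRKO cells (edgeR adjusted p = 0.0792). The lists of autophagy initiation, the ATG8 family and selective receptors had 2, 0 and 1 calls higher with insulin in IRKO cells and none higher with IGF-1 (all genes 1.06% and 1.61%). Their medians were 0.077, 0.024 and 0.052. Fbxo32, not called in floxed control cells, was called higher with insulin in IRKO cells (0.58, edgeR adjusted p = 0.031). Akap12 differed by -0.50 there (edgeR adjusted p = 5.3e-11), Cemip by -0.70 (1.17e-08), Ereg by -0.88 (0.000855) and Hsd17b7 by -0.33 (2.76e-05), all in edgeR.

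Against vehicle in the IRKO libraries, the 171 IGF-1-higher genes were mostly ones that rose: 144 (84.2%) rose and 6 fell with IGF-1, and 112 (65.5%) rose and 23 fell with insulin, where 26.9% and 24.7% of all genes rose. The 233 insulin-higher genes fell more often than they rose. With IGF-1, 155 (66.5%) fell and 24 rose, where 25.1% of all genes fell. With insulin, 113 (48.5%) fell, 40 rose and 80 were not called, where 21.7% of all genes fell. These IRKO responses share the IRKO vehicle libraries, but no library with the floxed comparison that chose the genes.

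**Figure D4:**
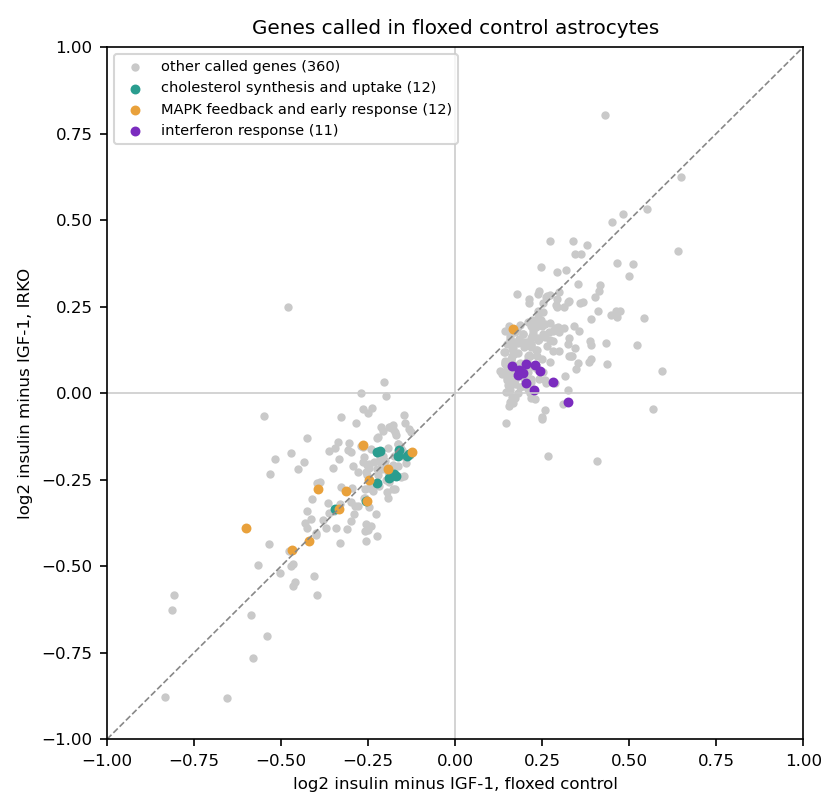
log2 difference (insulin minus IGF-1) in IRKO against that in floxed control astrocytes, for the 395 genes called in floxed control cells with a mean log2 CPM of at least 2, with 3 gene lists coloured and equality as a dashed line. Cholesterol and MAPK genes other than Jun lie below 0 on both axes, and the 11 interferon genes lie near 0 on the vertical axis, with Ifit2 at -0.026.

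The interferon list had 11 calls in floxed control and 0 in IRKO cells, where 18 of 28 members had a positive difference and the median was 0.024. Ifit2 was at 248, 263, 245 and 255 CPM with insulin and 243, 231, 284 and 272 CPM with IGF-1 in IRKO cells, overlapping ranges. A test of the difference between genotypes in edgeR called no gene of the 15599, with 690 at an unadjusted p under 0.05 (4.42%), and gave 2 calls in DESeq2 and 0 in limma voom. Of the 28 interferon genes 17 were at an unadjusted p under 0.05 in that edgeR test and none was called, with Ifit2 at 0.35 (SE 0.087, unadjusted p = 0.000248, edgeR adjusted p = 0.4). IRKO cells also carried a different virus from floxed control cells, so the receptor gene and the virus cannot be told apart.

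Traces of a few liver transcripts were called higher in the floxed insulin libraries, though Alb was not among the calls. Alb, the albumin gene, was at 0.115, 0.128, 0 and 0.114 CPM under vehicle, 9.27, 6.07, 7.30 and 2.81 CPM with insulin and 1.34, 0.0567, 3.20 and 0.0600 CPM with IGF-1. Insulin and IGF-1 libraries overlap, the difference of 2.42 (SE 0.72) had an edgeR adjusted p of 0.0569, and it was called in 9 of 18 other settings. In IRKO cells Alb varied from library to library. It was at 0, 0, 0 and 6.20 CPM under vehicle and 7.14, 0.0620, 5.115 and 3.47 CPM with insulin. With IGF-1 it was at 2.18, 1.43, 0.4235 and 1.48 CPM. Insulin against vehicle was not called for Alb there (edgeR adjusted p = 0.105). Apoa2, an apolipoprotein, was at 1.88, 1.802, 1.18 and 1.01 CPM with insulin and 0.305, 0.454, 0.561 and 0.840 CPM with IGF-1 (1.43, edgeR adjusted p = 0.0247), and lost its call in 5 of 8 leave-one-out fits (up to 0.107). Gc and Apoa4, also liver genes and named after their values were seen, were called higher with insulin at levels under 3 CPM. Apoa4 stood at 2.54, 0.961, 0.186 and 0 CPM with insulin and had no count in 3 of the 4 IGF-1 libraries. The summed liver markers made up 38.1 to 48.5 CPM with insulin, 30.2 to 38.0 CPM with IGF-1 and 33.6 to 37.1 CPM under vehicle. Most of that sum was Trf (transferrin), at 25.1 to 28.8 CPM in the 8 treated libraries, which glia express as well. Where these transcripts came from was not tested. DESeq2 called none of the liver list, which can also mean that it gave a gene no adjusted p. Alb and Apoa2 had a result in 18 and 17 of the other settings, where Aqp4, for example, had one in 19.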

How the data were processed

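Poly-A RNA from 2 µg of total RNA (integrity number above 7) was read as 150 bp pairs without strand, per the labels' protocols. The authors deposited a table of raw read counts for each library. Tools listed in the submitters' processing notes were STAR 2.7.7a, R 4.0.4, DESeq2 and edgeR, with mm10 as the build. For the counting program and annotation, nothing is given in the sources used here. The 3 closing lines without a gene were removed. Gene counts summed to 4.55 to 4.93% more than the reads overlapping genes, so some reads count for more than 1 gene.

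Counts were tested with edgeR 4.0.16 in R 4.3.3 (filterByExpr with minimum count 10 and total 15, TMM factors 0.982 to 1.018, quasi-likelihood fit, 1 mean per group, all 24 libraries). Benjamini-Hochberg adjustment ran over 15599 genes. limma 3.58.1 (voom), DESeq2 1.42.0 and other scalings, filters and library sets were alternatives. CPM used TMM sizes. Coordinates are 1-based on mm10 from GENCODE M21. The fit was also run on simulated counts, and the outcome is not reported here. Named genes were the 12 largest called differences in each direction without overlap and with mean log2 CPM of 2 or more, up to 4 called members of each of 39 lists, and a set of pathway genes. The members and lists were chosen with earlier results of these data known. Markers for 8 cell types were among the lists. Genes sharing over 20% of exon length with another are uncertain. Replicates differed by more than sampling noise (chi-square per gene 2.593 to 4.256) and were each kept. Results of some genes are not reported here.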

Additional observations from a re-analysis of the deposited data

Results flagged for a closer look

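Of 220 groups of 4 libraries examined (each named gene and each library measure in the floxed insulin and IGF-1 groups), 9 (4.09%) held 1 library whose gap to the nearest other exceeded Dixon's 95% limit as a share of the group's range, and chance gives about 1 in 20. Among insulin libraries, replicate 4 was low for Cacng4 (6.29 CPM, others 7.69 to 7.93) and Minar1 (8.14 CPM, others 9.07 to 9.22) and high for Tnc (260.0 CPM, others 244 to 246). Insulin replicate 1 was low for Ifit1 (364 CPM, others 435 to 449), Nop9 (84.3 CPM, others 87.5 to 87.7) and Reln (4.72 CPM, others 6.25 to 6.56). Insulin replicate 2 was high for the summed fibroblast and mural markers (458 CPM, others 404 to 409). Among IGF-1 libraries, replicate 3 was low for Cspg4 (15.8 CPM, others 16.7 to 16.8) and replicate 4 high for Hbegf (72.1 CPM, others 70.1 to 70.3).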

How the results depend on the processing

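The 404 calls (233 higher with insulin, 171 higher with IGF-1) became 364 to 471 under RLE factors, library size alone, a mean CPM filter, other library sets, a covariate for reads outside genes, limma voom and DESeq2. Without a filter on low counts they were 603, with 296 higher with IGF-1, and the genotype difference gave 16 calls (2 in DESeq2). Leaving out 1 library gave 247 to 424 calls, 127 to 231 higher with insulin and 106 to 193 with IGF-1. In IRKO cells leaving out 1 library, chosen after seeing the data, gave 267 to 402 calls, 79 to 148 and 186 to 254, and scaling by library size alone gave 220 and 225. The genotype difference gave 0 to 1 on leaving out a library, the 1 without IRKO IGF-1 replicate 2. Replicate numbers did not pair the libraries (correlation of same-numbered deviations 0.007, 0.018, 0.101 and -0.05). A replicate block gave 411 calls with all 24 libraries (238 and 173) and 429 with the 8 alone (244 and 185). It gave 428 calls in IRKO cells (167 and 261) and 0 for the genotype difference. Of 83 named calls, 51 held in every setting run, 32 were lost in some and 21 of those only on leaving out a library. None reversed. The cause of these shifts was not tested. Genes under about 10 CPM and differences under 0.153 on the log2 scale are where depth and the spread between libraries limit the comparison.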
